A study of Mus musculus with 6 samples.

Results

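Imprinted genes, 44 in all of the 54532 genes in the count table, were followed from control to 5-azacytidine-induced immortalized cardiosphere-derived cells of the mouse. They were chosen by name, as well-known imprinted genes of the mouse, and each matched 1 row of the table. From general knowledge of the mouse, 24 of them are used from the paternal copy and 17 from the maternal copy, and for the other 3 (Gnas, H13 and Inpp5f) the copy depends on the transcript. The genes lie in 19 domains, of which 10 hold only 1 listed gene. 32 of the 44 genes had enough reads to be tested, and the other 12 had 51 reads in all over 6 libraries.

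The cells (iCDCs, called iECDCs in the study) were grown from ventricular epicardium of adult C57BL/6 mice and kept dividing by a lentiviral human telomerase gene, and both groups carried that transgene. The study describes no cloning step beyond selection of the infected cells with puromycin. The 3 control libraries were labelled as iCDCs at passage 30. The 3 induced libraries were labelled as iCDCs at passage 30 that had been induced with 5-azacytidine (5-aza), given at 10 µM for 3 days and followed by 4 weeks in IMDM with 2% serum. The methods give another basal medium and a shorter culture, and for routine growth of the cells a medium richer in serum. How long the sequenced control cells were cultured is not stated, so drug, serum and time in culture cannot be told apart. The libraries are labelled as separate samples of each group, without saying whether they came from separate cultures. The methods speak of biological replicates, but of 2 per condition where the table holds 3, so the p-values measure only the spread between these libraries. Each library held 19041133 to 19823369 counted reads, and 64.8% of the 14246 tested genes changed between the groups.

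Imprinted genes carry a mark set in the germ line, usually DNA methylation of a control region, by which the cell uses the copy from 1 parent and keeps the other silent. Many lie in clusters where a control region acts on several genes at once, and a noncoding RNA from the cluster is often used from the opposite parental copy to its protein-coding neighbours. Several of their products regulate fetal growth, and in many tissues, the heart included, a group of them is turned down after birth. 5-aza is built into nucleic acids and traps the DNA methyltransferases, so that dividing cells lose methylation. Reads were counted per gene without regard to parental copy, and the mice were inbred, so nothing here shows from which copy a transcript came, and DNA methylation was not measured.

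Of the 32 tested imprinted genes, 16 rose and 6 fell with an adjusted p under 0.05 (edgeR quasi-likelihood or QL test, Benjamini-Hochberg adjustment over all tested genes), and 10 were not past it. The 22 genes that changed were 68.8% of those tested, close to the 64.8% of all tested genes. Rises took 50% of the tested imprinted genes, where 32.6% of all tested genes rose, and falls took 18.8%, where 32.2% of all tested genes fell. Changes of 2-fold or more were seen in 10, or 31.2%, against 17.1% of all tested genes. 5 of these were rises, as were 9.29% of all tested genes, and 5 were falls, as were 7.83%. The 3 control and 3 induced libraries did not overlap for 24 of the 32 genes, or 75%, and for 68.6% of all tested genes. The genes past 2-fold were H19, Mest, Slc22a18, Igf2 and Grb10 among the rises, and Dlk1, Rian, Mirg, Meg3 and Peg12 among the falls. The median log2 fold change was 0.50 over the 32 genes and -0.01 over all tested genes. The counts and the median describe these genes and were not tested as a set. 26 of the 32 passed the filter on low counts through both groups. Dlk1, Mirg, Cdkn1c and Nnat passed through the control libraries alone, and Slc22a18 and Usp29 through the induced libraries alone. Such genes could hardly be called in the other direction, and Dlk1, Mirg and Slc22a18 are among those past 2-fold.

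**Figure D1:**
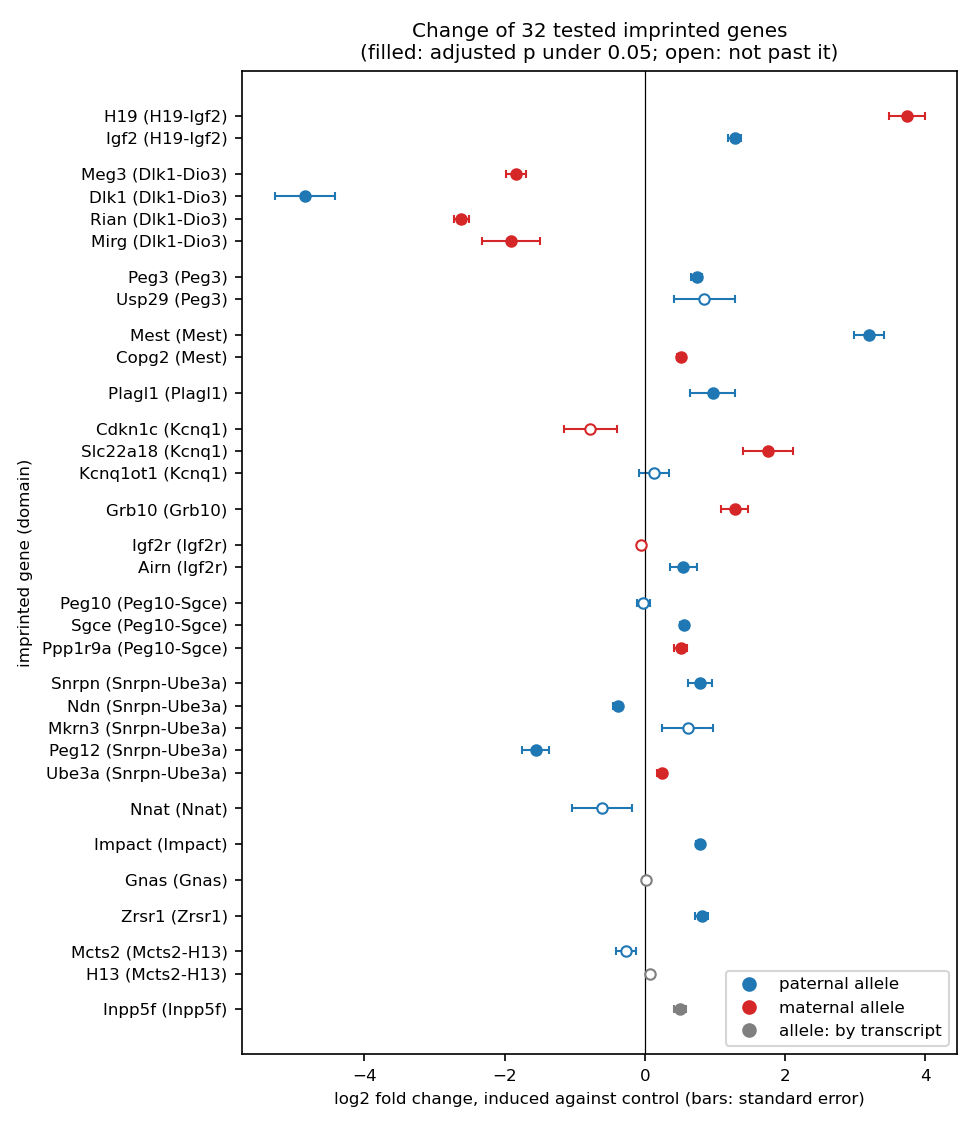
Log2 fold change of each of the 32 tested imprinted genes (x axis, induced against control, with standard error), grouped by domain and coloured by the parental copy that is usually expressed; filled points are past an adjusted p of 0.05 and open points are not. All 4 tested genes of the Dlk1-Dio3 domain lie between -4.85 and -1.84, and both genes of the H19-Igf2 domain lie at 1.28 and 3.74.

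Sorted by parental copy, genes of either kind both rose and fell. Of the 18 tested genes that are usually paternal, 9 rose, 3 fell and 6 were not past the threshold, with a median log2 fold change of 0.59. Of the 11 tested genes that are usually maternal, 6 rose, 3 fell and 2 were not past it, with a median of 0.24. The label may not hold in these cells for Copg2 and Ube3a, both among the rises. Copg2 is maternal in some mouse tissues and Ube3a in neurons. The 3 maternal genes that fell, Meg3, Rian and Mirg, are all noncoding RNAs of the Dlk1-Dio3 domain. Of the 3 genes with a copy that depends on the transcript, Inpp5f rose by 0.50 on the log2 scale, while Gnas and H13 had log2 fold changes of 0.02 and 0.07. The share called was 66.7% of the tested paternal genes and 81.8% of the maternal ones, beside 64.8% of all tested genes. With the Dlk1-Dio3 domain set aside, its values being known, 16 of 28 tested genes rose (57.1%) and 2 fell (7.14%, Ndn and Peg12). Every tested gene of that domain fell, so leaving it out could only lower the share of falls and raise that of rises. Of all tested genes 32.6% rose and 32.2% fell.

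The H19-Igf2 domain gave the largest rise among the 32 tested genes of the list. H19 (ENSMUSG00000000031, chromosome 7, 142575529 to 142578143, minus strand of GRCm38) is a maternal noncoding RNA, abundant in the fetus and turned down in most organs after birth. Its level in CPM, the read count scaled to library size with TMM factors, was 6.23, 4.63 and 5.71 in the control libraries and 62.4, 112 and 47.3 in the induced libraries. The lowest induced library was well above the highest control library, and the induced libraries differed among themselves by more than a factor of 2. The mean rose 13.4-fold (log2 fold change 3.74, SE 0.25, edgeR QL adjusted p 2.85e-10). Igf2 (chromosome 7, 142650766 to 142666816, minus strand) encodes a fetal growth factor and is the paternal gene of the pair. It had 18.2, 18.4 and 18.5 CPM in the control libraries and 37.2, 50.9 and 45.6 CPM in the induced libraries. The groups did not overlap, and the mean rose 2.43-fold (log2 fold change 1.28, SE 0.09, edgeR QL adjusted p 8.89e-10).

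In mammals the pair shares enhancers downstream of H19, and the methylation of a control region between them decides which gene of a copy has access to them. Both genes rose here, and they did not rise equally. On the scale of CPM per kilobase of gene length, the ratio of H19 to Igf2 was 0.795, 0.585 and 0.719 in the control libraries and 3.90, 5.10 and 2.41 in the induced libraries. H19 was thus below Igf2 in every control library and above it in every induced library. The level of Igf2 is uncertain, since 64.5% of its exon bases also belong to another gene. On the same strand this is Gm49394, listed at 0 reads in all 6 libraries. On the other strand it is Igf2os, an antisense RNA with 54 reads in control and 208 in induced libraries (log2 fold change 2.00, SE 0.32, edgeR QL adjusted p 2.65e-05). The strand setting of the counting is not stated, so reads of Igf2 and Igf2os may not be told apart. H19 shares 9.15% of its exon bases with other genes.

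Most tested genes around the pair also rose. Of 16 tested genes within 1 Mb of the pair that are in neither list of imprinted genes, 10 rose and 2 fell. Among all tested genes 32.6% rose and 32.2% fell. The median log2 fold change of the 16 was 0.64, with a range of -1.70 to 6.19. They include Igf2os, whose reads may not be told apart from those of Igf2. The 4 tested genes nearest to H19 on its other side did not rise. Mrpl23, a mitochondrial ribosomal protein gene, had a log2 fold change of 0.01 (edgeR QL adjusted p 0.917) and Tnnt3, a fast skeletal troponin gene, one of 0.14 (0.769). Prr33 and Lsp1 fell by 1.70 and 0.74 on the log2 scale. These neighbours were named after their values were seen.

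H19 and Igf2 each carry a microRNA on their own strand, and so does Mest, a gene described further on. A microRNA finds its targets mainly through its seed, bases 2 to 8, printed in capitals. The mature sequences, from RefSeq on GRCm38.p6, are shown because the transcripts that hold them rose. No small RNA was measured, so the levels of the mature microRNAs are not known. The microRNAs are miR-675 of H19, miR-483 of Igf2 and miR-335 of Mest, and no seed is shared among them.
miR-675-5p: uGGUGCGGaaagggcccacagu
miR-675-3p: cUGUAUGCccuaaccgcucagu
miR-483-3p: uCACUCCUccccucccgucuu
miR-335-5p: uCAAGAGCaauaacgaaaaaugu

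The Dlk1-Dio3 domain on chromosome 12 moved the other way. All 4 of its tested genes fell, usually paternal and usually maternal ones alike, and the 2 remaining genes, Rtl1 and Dio3, had 1 read each over the 6 libraries. Meg3 and Rian passed the filter through both groups. Dlk1 and Mirg passed through the control libraries alone, a route open only to genes that are low in induced libraries. Dlk1 (109452823 to 109463336, plus strand) encodes a membrane protein with EGF-like repeats, known as a marker of preadipocytes and other progenitors, and is used from the paternal copy. It had 59, 45 and 57 reads in the control libraries and 1, 1 and 3 in the induced libraries. As CPM these were 2.99, 2.29 and 2.85 against 0.0531, 0.0525 and 0.157, and the groups were far apart. The mean was 30.9 times higher in control than in induced cells (log2 fold change -4.85, SE 0.43, edgeR QL adjusted p 1.37e-08). With so few induced reads the size is imprecise, and it was -5.51 without induced replicate 3.

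The maternal RNAs of the domain come from a series of noncoding transcripts that run in 1 direction downstream of Dlk1. Meg3 (ENSMUSG00000021268, 109541001 to 109571726, plus strand) is a long noncoding RNA often described as growth suppressing. It had 21.8, 23.1 and 20.6 CPM in control libraries and 4.94, 8.30 and 5.08 CPM in induced libraries. Rian, the host of a cluster of small nucleolar RNAs and of microRNAs, had 25.7, 23.6 and 25.0 CPM in control libraries and 4.19, 3.52 and 4.35 CPM in induced libraries. Neither gene overlapped between the groups, and induced replicate 2 was the highest induced library for Meg3 and the lowest for Rian. Meg3 fell by 1.84 on the log2 scale (SE 0.14, edgeR QL adjusted p 1.85e-09). Rian fell by 2.62 (SE 0.11, edgeR QL adjusted p 2.20e-13), the smallest adjusted p among the 32 imprinted genes. Mirg, the host of a large microRNA cluster, had 21, 17 and 18 reads in control libraries and 4, 4 and 6 in induced libraries (log2 fold change -1.91, SE 0.42, edgeR QL adjusted p 0.000585).

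In the edgeR fit Dlk1 had a larger fall than its maternal neighbours, a difference that rests on its few induced reads. The order was not kept with limma on FPKM at a pseudocount of 1. There the log2 fold changes were -0.54 for Dlk1, -0.72 for Meg3, -0.94 for Rian and -0.13 for Mirg. The ratio of Meg3 to Dlk1 in CPM per kilobase was 2.28, 3.16 and 2.26 in control libraries and 29.1, 49.4 and 10.1 in induced libraries, where it rests on 1 to 3 reads of Dlk1. The ratio of Rian to Meg3 was 1.17, 1.01 and 1.20 in control libraries and 0.843, 0.421 and 0.849 in induced libraries. Every induced library lay above every control library for Meg3 to Dlk1, and below for Rian to Meg3. Induced replicate 2, which held the extreme value of the H19 to Igf2 ratio as well, was the highest induced library for 50% of the 32 imprinted genes and for 37.8% of all tested genes.

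The falls were not shared by most genes around the domain. Of 26 other tested genes within 1 Mb of it, 5 rose and 7 fell, where 32.6% of all tested genes rose and 32.2% fell. Their median log2 fold change was -0.06, against -2.27 for the 4 members. Begain, a postsynaptic protein gene and the next tested gene upstream of Dlk1, fell from 288 to 51 reads (log2 fold change -2.43, SE 0.24, edgeR QL adjusted p 6.68e-08). It was named after its values were seen. Among the other neighbours on the map, Evl, an actin regulator gene far upstream, fell by 0.58 on the log2 scale (edgeR QL adjusted p 4.28e-07). Gm3379, a processed pseudogene downstream, had a log2 fold change of -0.76 (edgeR QL adjusted p 0.0214), and Yy1, a zinc finger factor gene further upstream, one of -0.14 (edgeR QL adjusted p 0.0343).

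**Figure D2:**
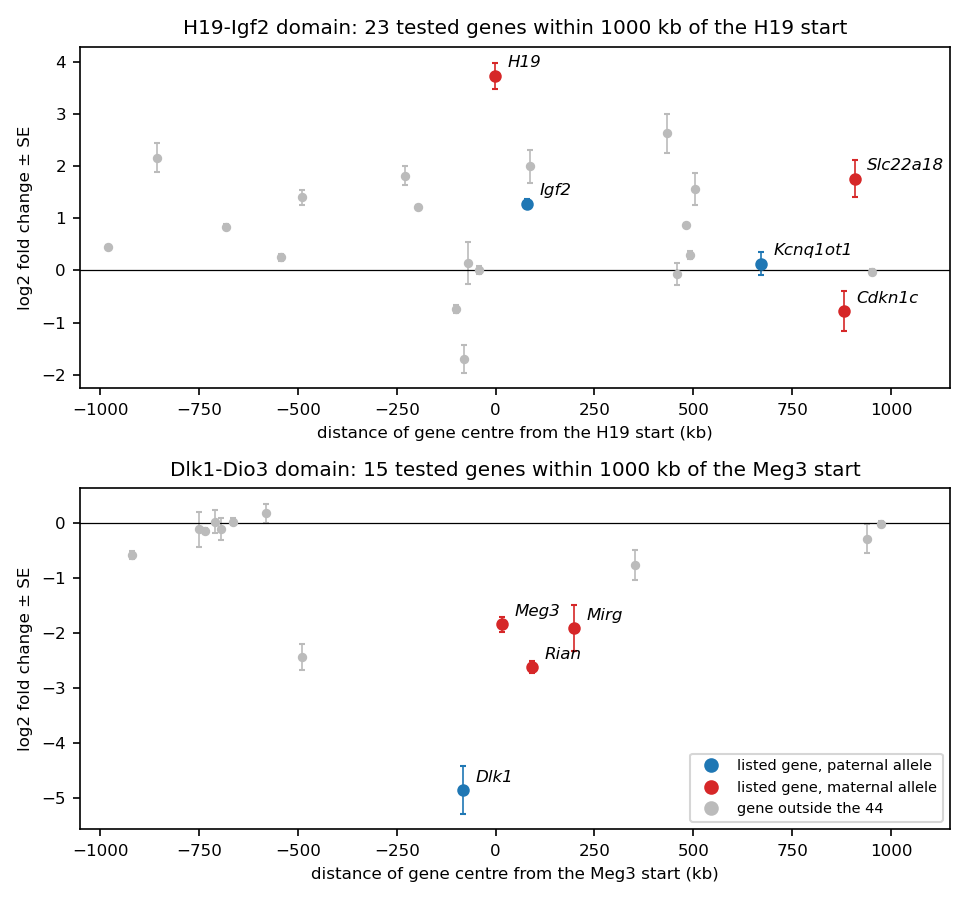
Log2 fold change with standard error (y axis) of every tested gene whose centre lies within 1 Mb of the start of H19 (top, 23 genes) or Meg3 (bottom, 15 genes), against its distance from that start in kb; listed imprinted genes are coloured by parental copy and other genes are grey. In the lower panel Dlk1 at -4.85, Meg3 at -1.84, Rian at -2.62 and Mirg at -1.91 stand below the genes on either side, except for Begain at -2.43; in the upper panel H19 at 3.74 is the highest point.

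RefSeq places 14 microRNA hairpins on the strand of Mirg inside the gene, 3 inside Rian and 1 inside Meg3. The following mature sequences, with seeds in capitals, are shown as the microRNA content of the 3 hosts that fell together. miR-453 and miR-496a-5p of Mirg share the seed GGUUGCC, the only seed shared among the 48 mature microRNAs that RefSeq places inside the 44 genes. The mature forms were not measured.
miR-770-5p: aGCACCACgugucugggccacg
miR-370-3p: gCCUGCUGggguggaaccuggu
miR-134-5p: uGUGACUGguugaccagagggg
miR-410-3p: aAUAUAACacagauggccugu
miR-453: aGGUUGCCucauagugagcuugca
miR-496a-5p: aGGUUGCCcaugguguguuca

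**Figure D3:**
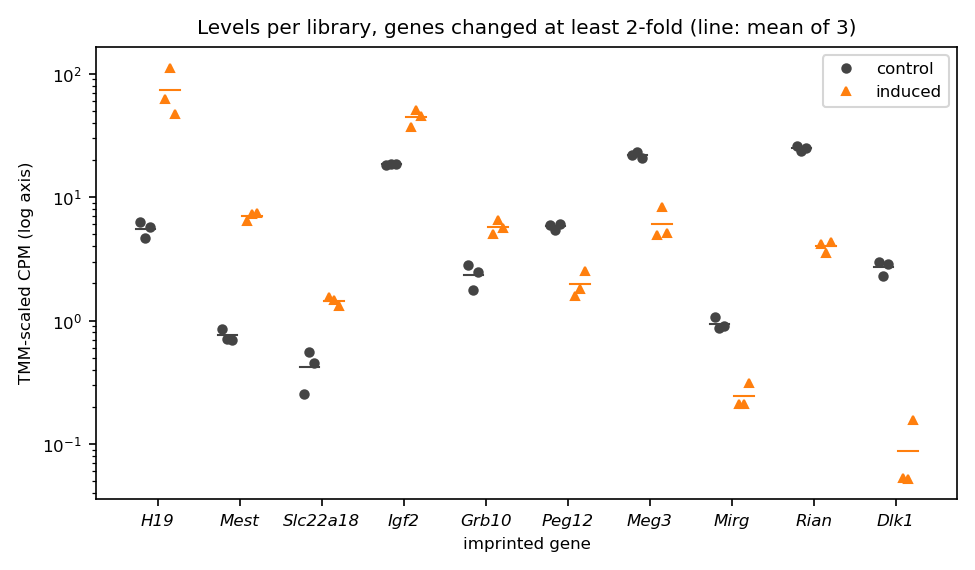
TMM-scaled CPM (y axis, log scale) in each of 3 control libraries (circles) and 3 induced libraries (triangles) for the 10 imprinted genes that changed at least 2-fold, with a line at each mean. No gene shown has overlapping groups, and the widest spread within a group is that of Dlk1 in induced cells, 0.0525 to 0.157.

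Mest rose next most after H19. Mest (chromosome 6, 30723547 to 30748465, plus strand) encodes a protein of the alpha/beta hydrolase fold that is abundant in embryonic mesoderm, and is used from the paternal copy. It had 17, 14 and 14 reads in control libraries and 120, 138 and 142 in induced libraries, or 0.861, 0.713 and 0.701 CPM against 6.37, 7.25 and 7.43 CPM. The induced libraries lay close together and far above the controls, and the mean rose 9.26-fold (log2 fold change 3.20, SE 0.21, edgeR QL adjusted p 1.37e-10). Its neighbour Copg2, a coatomer subunit gene that is maternal in some mouse tissues, rose from 40.2 ± 1.30 to 57.2 ± 1.26 CPM (SD, n = 3), a log2 fold change of 0.51 with an edgeR QL adjusted p of 1.66e-07. The ends of the genes overlap on opposite strands over 23.1% of the exon bases of Mest. Copg2 went from 2385 to 3256 reads and Mest from 45 to 400, so where the strand was not used in counting, reads of the shared end may not be told apart. The ratio of Mest to Copg2 in CPM per kilobase went from 0.0225 to 0.0274 in control libraries to 0.147 to 0.170 in induced libraries. The third gene of the domain, Klf14, had 0 reads in every library. Of 14 other tested genes within 1 Mb, 6 rose and 3 fell, with a median of 0.11, where 32.6% of all tested genes rose and 32.2% fell.

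Mest belongs to a class of 14 paternal genes whose promoter lies in a control region that is methylated on the maternal copy, again from general knowledge. The others are Peg3, Usp29, Plagl1, Kcnq1ot1, Airn, Peg10, Sgce, Snrpn, Nnat, Impact, Zrsr1, Mcts2 and Nap1l5. Of the 13 tested, 8 rose, 0 fell and 5 were not past the threshold, with a median log2 fold change of 0.74 and a range of -0.61 to 3.20. The share called, 61.5%, was close to the 64.8% of all tested genes, of which 32.6% rose and 32.2% fell. No gene of this class other than Mest changed 2-fold. Of the 5 other paternal genes tested, Igf2 rose, Dlk1, Ndn and Peg12 fell, and Mkrn3 was not past the threshold (log2 fold change 0.61, edgeR QL adjusted p 0.150). The split into these classes was made with the values known, and no test was made between them.

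Peg3, a zinc finger protein gene, had 37.3 ± 0.652 CPM in control cells against 62.3 ± 9.93 CPM after induction (SD, n = 3), a log2 fold change of 0.74 with an edgeR QL adjusted p of 3.23e-07. Usp29, which starts from the same promoter in the other direction, had 23 reads in control and 40 in induced libraries and was not past the threshold (log2 fold change 0.85, edgeR QL adjusted p 0.105). Impact, a regulator of translation, was among the most abundant imprinted genes and rose from 66.5 ± 5.00 to 115 ± 7.08 CPM (SD of 3 libraries; log2 fold change 0.79, edgeR QL adjusted p 3.46e-09). Zrsr1, a splicing factor gene that arose by retroposition into Commd1, rose from 14.6 ± 1.01 to 25.6 ± 2.27 CPM (SD of 3 libraries; log2 fold change 0.81, edgeR QL adjusted p 2.47e-07). Its host Commd1 fell by 0.41 on the log2 scale (edgeR QL adjusted p 0.00531). Related sequences can share reads with retrogenes, and Zrsr2 had a log2 fold change of 0.13 (edgeR QL adjusted p 0.154).

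Snrpn, a splicing protein gene, rose from 2.83 ± 0.334 to 4.90 ± 0.437 CPM (SD of 3 libraries; log2 fold change 0.79, edgeR QL adjusted p 0.000628). Its level is uncertain, since 34.1% of its exon bases belong to other genes, among them Snurf, which was listed at 0 reads in all libraries. Sgce, the epsilon-sarcoglycan gene, rose from 60.9 ± 2.84 to 90.0 ± 3.77 CPM (SD of 3 libraries; log2 fold change 0.56, edgeR QL adjusted p 6.44e-08). Peg10, a retrotransposon-derived gene transcribed from the same region in the opposite direction, had 21.8, 23.8 and 21.9 CPM in control libraries and 20.8, 25.3 and 20.6 CPM in induced libraries, with overlap (log2 fold change -0.02, edgeR QL adjusted p 0.869). Both are paternal genes of 1 control region, and Sgce was 1.52 to 1.80 times Peg10 in CPM per kilobase in control libraries and 2.28 to 2.82 times in induced libraries.

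Plagl1, a zinc finger gene that restrains cell growth, had 14, 10 and 18 reads in control libraries and 24, 28 and 27 in induced libraries (log2 fold change 0.97, SE 0.32, edgeR QL adjusted p 0.0133). The call was lost with DESeq2 (adjusted p 0.0731), with limma on FPKM at a pseudocount of 1 (adjusted p 0.0540) and without control replicate 2 (adjusted p 0.0720), and its adjusted p ranged from 0.00459 to 0.0731 over the alternatives. Airn, the noncoding RNA antisense to Igf2r, had 49, 45 and 58 reads in control and 63, 71 and 79 in induced libraries (log2 fold change 0.55, SE 0.19, edgeR QL adjusted p 0.0183). Its call was lost with DESeq2 (adjusted p 0.0774), without control replicate 2 (adjusted p 0.0697) and without induced replicate 3 (adjusted p 0.0715), in a range of 0.00723 to 0.0774. Nnat, a membrane proteolipid gene of brain and fat, had 59 reads in control and 37 in induced libraries (log2 fold change -0.61, edgeR QL adjusted p 0.223), and Mcts2, a retrogene in an intron of H13, a log2 fold change of -0.27 (edgeR QL adjusted p 0.101). The source gene Mcts1 had one of 0.12 (edgeR QL adjusted p 0.221).

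Promoter windows of 300 bases, from 250 before to 50 after a gene start in RefSeq on GRCm38.p6, were at hand for 37 of the 44 genes, with 54 windows in all. They were searched on both strands for TGCCGC, the hexamer that the zinc finger protein ZFP57 binds when it is methylated and through which imprints are kept. Of 32851 windows of all genes 11.6% held it, and of the 54 windows of imprinted genes 25.9% did. For the genes of the class with promoters in maternally methylated regions it was in 7 of 16 windows, 43.8%. The class was set per gene, so every window of such a gene counts, wherever it lies. Those of Snrpn start from 60005150 to 60450427. Windows of 1 gene can overlap, as 2 of Mest do, and the hexamer holds a CpG while imprinted windows have a median of 15 CpGs against 7 for all windows. The median was 11.5 CpGs in windows of the class. In windows of the other imprinted genes it was 15, and 18.4% of those windows held the hexamer. These shares are no more than a description. The windows below are those of genes that rose (Mest, chr6:30737803-30738102, and Plagl1, chr10:13090582-13090881) and of genes that fell (Dlk1, chr12:109452573-109452872, and Meg3, chr12:109540746-109541045), all on the plus strand. Capitals mark TGCCGC or its reverse complement GCGGCA. Where a gene had several windows, the one with the most matches is printed. Mest holds 2 matches, Plagl1 and Meg3 hold 1 each, and in the window of Dlk1 there was no match. Other windows of Mest (from 30733256) and Meg3 (from 109545148) held 0 matches. The windows hold 17, 26, 9 and 13 CpGs in the order printed.
Mest: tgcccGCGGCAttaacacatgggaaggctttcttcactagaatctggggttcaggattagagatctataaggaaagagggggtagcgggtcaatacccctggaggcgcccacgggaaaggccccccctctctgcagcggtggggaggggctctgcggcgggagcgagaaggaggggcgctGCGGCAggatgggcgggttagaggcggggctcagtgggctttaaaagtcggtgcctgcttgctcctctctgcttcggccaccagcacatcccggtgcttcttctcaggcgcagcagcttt
Plagl1: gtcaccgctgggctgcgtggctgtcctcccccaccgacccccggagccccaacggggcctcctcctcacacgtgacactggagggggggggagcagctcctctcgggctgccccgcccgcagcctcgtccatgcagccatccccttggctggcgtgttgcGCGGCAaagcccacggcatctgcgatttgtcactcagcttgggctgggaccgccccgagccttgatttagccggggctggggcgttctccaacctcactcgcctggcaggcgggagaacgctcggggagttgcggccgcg
Dlk1: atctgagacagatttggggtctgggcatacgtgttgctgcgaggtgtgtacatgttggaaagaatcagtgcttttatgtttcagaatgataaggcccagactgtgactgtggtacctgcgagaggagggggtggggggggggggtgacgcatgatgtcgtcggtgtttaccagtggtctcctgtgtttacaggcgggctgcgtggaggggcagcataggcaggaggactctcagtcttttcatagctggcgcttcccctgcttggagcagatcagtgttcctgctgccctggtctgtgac
Meg3: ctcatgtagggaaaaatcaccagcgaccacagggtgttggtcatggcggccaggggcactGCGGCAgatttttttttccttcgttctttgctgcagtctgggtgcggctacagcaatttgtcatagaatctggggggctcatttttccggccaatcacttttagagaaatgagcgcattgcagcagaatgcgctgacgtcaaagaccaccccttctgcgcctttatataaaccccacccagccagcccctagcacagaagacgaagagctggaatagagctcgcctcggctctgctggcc

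The Kcnq1 domain, on chromosome 7 beyond Igf2, is held silent on the paternal copy by the noncoding RNA Kcnq1ot1. Kcnq1ot1 had 39, 64 and 59 reads in control libraries and 46, 66 and 58 in induced libraries, so the groups overlapped (log2 fold change 0.13, SE 0.22, edgeR QL adjusted p 0.634). Slc22a18, a transporter gene of the maternal copy, had 5, 11 and 9 reads in control and 29, 28 and 25 in induced libraries, and rose by 1.76 on the log2 scale (SE 0.36, edgeR QL adjusted p 0.000292). Cdkn1c, which encodes the cell-cycle inhibitor p57 and is also maternal, had 17, 14 and 25 reads in control and 12, 12 and 7 in induced libraries. Its groups did not overlap, yet it was not past the threshold (log2 fold change -0.78, SE 0.38, edgeR QL adjusted p 0.0804). Phlda2 and Ascl2 had 3 and 11 reads over the 6 libraries.

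Among further imprinted genes of this region that are not among the 44, the tetraspanin genes Cd81 and Tspan32 rose, by 0.87 and 2.63 on the log2 scale respectively, and Tnfrsf23, a decoy death receptor gene, by 0.84. Osbpl5 and Tssc4 rose by 0.55 and 0.30, while Tnfrsf22 and Nap1l4 had log2 fold changes of -0.12 and -0.03 (edgeR QL adjusted p 0.406 and 0.644). These genes were named after their values were seen.

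Igf2r, the receptor that takes IGF2 and mannose 6-phosphate-tagged enzymes to lysosomes, had 216 ± 4.54 CPM in control cells against 208 ± 7.83 CPM after induction (SD of 3 libraries; log2 fold change -0.05, SE 0.05, edgeR QL adjusted p 0.345). The ratio of Igf2r to Airn in CPM per kilobase was 28.8 to 35.6 in control and 18.9 to 23.7 in induced libraries. Grb10, an adaptor that dampens signalling of insulin and IGF receptors, had 2.84, 1.78 and 2.45 CPM in control libraries and 4.99, 6.57 and 5.65 CPM in induced libraries. The groups did not overlap, and Grb10 rose 2.43-fold (log2 fold change 1.28, SE 0.19, edgeR QL adjusted p 1.22e-05). Ddc and Cobl, which flank Grb10, had log2 fold changes of 2.00 and 3.75 and both rose. They were named after their values were seen. Ddc encodes an amine-producing decarboxylase and Cobl an actin nucleator.

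The Snrpn-Ube3a domain, the counterpart of the human region of Prader-Willi and Angelman syndromes, was mixed. Ndn (necdin), a growth-restraining gene of neurons and mesenchyme, fell from 48.5 ± 1.67 to 37.0 ± 2.20 CPM (SD of 3 libraries; log2 fold change -0.39, edgeR QL adjusted p 1.95e-05). Peg12, a neighbour of Ndn related to the Frat regulators of Wnt signalling, had 5.92, 5.45 and 6.06 CPM in control libraries and 1.59, 1.79 and 2.51 CPM in induced libraries. It fell by 1.56 on the log2 scale (SE 0.19, edgeR QL adjusted p 9.41e-07), with no overlap. Ube3a, a ubiquitin ligase gene that is maternal in neurons and used from both copies in most other cells, rose from 42.5 ± 0.859 to 50.3 ± 2.48 CPM (SD of 3 libraries; log2 fold change 0.24, edgeR QL adjusted p 0.00102). Magel2 had 0 reads throughout. Snrpn thus rose while Ndn and Peg12, paternal genes of the same domain, fell.

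Gnas and H13, both abundant, were not past the threshold. H13, a signal peptide peptidase gene, had 242 ± 4.33 and 254 ± 12.4 CPM (SD of 3 libraries; log2 fold change 0.07, edgeR QL adjusted p 0.213). Gnas, which encodes the stimulatory G protein subunit, had 141 ± 9.33 and 143 ± 1.11 CPM (SD of 3 libraries; log2 fold change 0.02, edgeR QL adjusted p 0.721), and the reads do not separate its imprinted transcripts from the main one. Inpp5f, an inositol phosphatase gene with an imprinted short transcript, rose from 20.3 ± 1.38 to 28.6 ± 3.57 CPM (SD of 3 libraries; edgeR QL adjusted p 0.0001). Ppp1r9a, a neurabin gene of the Peg10-Sgce domain, rose by 0.51 on the log2 scale (edgeR QL adjusted p 7.33e-05).

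On the scale of CPM per kilobase, which lets genes be compared, H13, Igf2r, Impact, Ndn and Gnas led in control cells with 27.2, 23.2, 19.4, 13.1 and 12.6. In induced cells Impact led with 33.4, followed by H19 with 30.0, H13 with 28.6 and Igf2r with 22.3. H19 moved from rank 14 to rank 2 of the 32, and Dlk1 from rank 23 to rank 32. The 44 genes took 0.106% to 0.109% of the reads of control libraries and 0.121% to 0.135% of those of induced libraries.

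**Figure D4:**
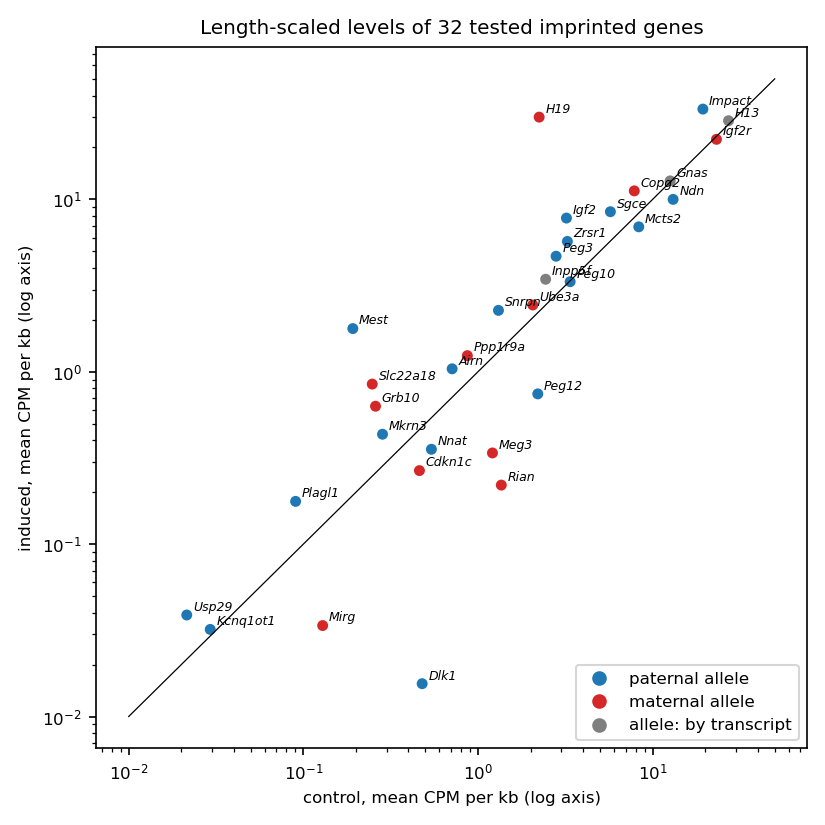
Mean CPM per kilobase in induced cells (y axis) against control cells (x axis), both on log scales, for the 32 tested imprinted genes, coloured by the usual parental copy, with the line of equality. H19 stands above the line at 2.24 and 30.0, Mest at 0.192 and 1.78, and Dlk1 below it at 0.479 and 0.0155.

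12 genes did not pass the filter, so their reads were too few for a test at this depth. Klf14, Calcr, Magel2 and Rasgrf1 had 0 reads in all 6 libraries, and a count of 0 allows up to 0.151 to 0.158 CPM in a library, taking 3 reads as the limit and covering counting error only. Nap1l5, a paternal retrogene, had 7 reads in control and 15 in induced libraries, and Zim1, the maternal gene of the Peg3 domain, had 4 and 0. Asb4 had 4 and 4, Ascl2 had 4 and 7, and Phlda2 had 1 and 2. Dio3 and Zdbf2 had 1 read each in control, and Rtl1 had 1 read in induced libraries.

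A further list of 36 genes named as imprinted in at least some mouse tissues, mostly neighbours of the same domains, had 26 tested members, of which 16 rose and 5 fell. The 4 with the smallest p all rose: Cd81, the paraoxonase gene Pon2 (1.19 on the log2 scale), the pyruvate dehydrogenase kinase gene Pdk4 (1.68) and the noncoding RNA Peg13 (1.41). Pon2 and Pdk4 lie near Peg10 and Sgce. Sfmbt2, a polycomb protein gene, and Tfpi2, a protease inhibitor gene, had log2 fold changes of -2.06 and -2.47. Their share called, 80.8%, stands beside 64.8% of all tested genes, and many of them are used from both copies outside placenta or brain.

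Of 18 regulators of imprints, 17 were tested, 4 rose and 9 fell. The list holds genes that set or keep methylation and also Tet1, Tet2 and Tet3, which remove it. The falls were 52.9% of those tested, beside 32.2% of all tested genes, and the rises 23.5%, beside 32.6%. The 4 with the smallest p all fell. Uhrf1, which brings the maintenance methyltransferase to replicating DNA, fell from 84.7 ± 1.01 to 22.4 ± 0.952 CPM (SD of 3 libraries; log2 fold change -1.92), and Dnmt1, that methyltransferase, from 131 ± 4.93 to 55.0 ± 2.47 CPM (SD of 3 libraries; log2 fold change -1.26). Setdb1, a histone methyltransferase, and Trim28, the corepressor that ZFP57 recruits, fell by 0.77 and 0.60 on the log2 scale. Dnmt1 and Uhrf1 are made mainly in dividing cells. The 4 rises were those of the methyltransferase gene Dnmt3a (0.44 on the log2 scale), Zfp445 (0.34), Arid4b (0.24) and Tet3 (0.22). Zfp57 itself, usually confined to germ cells and early embryo, had 32.5 ± 0.446 CPM in control cells against 28.0 ± 1.82 CPM after induction (SD of 3 libraries; log2 fold change -0.22, edgeR QL adjusted p 0.0109).

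The label of the cells was checked against 8 cardiosphere and epicardial markers, which were all detected in both groups, with summed levels of 1030 to 1050 CPM in control and 1860 to 2020 CPM in induced libraries. Most of the difference was Upk3b, which went from 254 to 941 CPM. Of the 8 markers 6 rose, while Tbx18 and Ly6a fell by 0.33 and 0.57 on the log2 scale. The rises include Wt1 and Tcf21, for which the study calls its epicardium-derived cells negative. Both had reads in every library, controls included, which goes against that description of the cells. Wt1 averaged 19.6 CPM over the control libraries and rose to 49.7 (log2 fold change 1.34). Tcf21 averaged 14.3 CPM over the control libraries and rose to 40.2 (log2 fold change 1.49). Several imprinted genes are used in neurons, and the 8 neuronal markers summed to 92.1 to 96.6 CPM in control and 32.3 to 36.9 CPM in induced libraries, nearly all of it Tubb3. Tubb3 and Syt1 had log2 fold changes of -1.61 and -5.13 and fell, Map2 rose by 1.03, and Snap25 and Elavl4 had 0 reads. The 8 leukocyte markers summed to 23.6 to 26.0 and 39.6 to 45.8 CPM, mostly Csf1r and Cd68. Csf1r fell from 1340 to 619 reads, while Cd68 rose from 116 to 1659. Fcer1g rose from 2 to 187 reads (log2 fold change 6.36, edgeR QL adjusted p 2.97e-09). Laptm5 went from 7 to 0 reads, and Ptprc, Cd52, Tyrobp and Itgam were at 0 reads. The 6 endothelial markers summed to under 1 CPM in every library, with Tie1 at 0 reads. The 10 cardiomyocyte markers summed to 13.2 to 16.2 and 60.6 to 63.9 CPM, mostly Tnnt2. Myl7 rose from 0 to 74 reads (log2 fold change 7.66, edgeR QL adjusted p 1.38e-06). Ryr2, which was not tested, went from 1 to 29 reads and Myl2, also untested, from 2 to 0. Tnni3 was not past the threshold, and Myh6 had 1 read in all. The part of these markers in the changes of imprinted genes was not tested. In such bulk libraries, fewer cells that express a gene and less RNA of it in each cell cannot be told apart.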

How the data were processed

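RNA was sequenced in 3 control and 3 induced libraries of immortalized cardiosphere-derived cells. The authors deposited 1 table of raw read counts per gene, with FPKM values in the same table that the authors scaled by gene length and library size. The submitters' processing notes list HISAT2 2.0.5, featureCounts 1.5.0-p3, DESeq2 and mm10, while the methods name DESeq. Strand setting and annotation release are not given in the sources used here. The table's columns C and induce were matched to the titles by group and number. The authors' fold changes, p-values and Gene Ontology tables were not used. Coordinates are those of the table, and 43 of the 44 genes have the same ones in GENCODE M21.

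Counts were tested in R 4.3.3 with edgeR 4.0.16: filterByExpr (minimum count 10, minimum total 15) kept 14246 genes, scaled by TMM, and the two-sided quasi-likelihood test was adjusted by Benjamini-Hochberg at 0.05 over all of them. SE was taken from the fold change and its F. Every listed gene was accounted for, and those changed at least 2-fold are given by library. Genes, lists and classes were chosen with earlier results of these data known. On simulated counts with 200 genes changed 2-fold, the test recovered 88% with 0 false calls among 14046 genes. The simulation gave every gene the same dispersion, and in the data 64.8% of genes were called, so it does not give the error rate of these data. Pairs of libraries of a group differed by more than sampling noise (2.56 to 8.91, chi-square over its degrees of freedom), so all 6 were counted. Alternatives were DESeq2 1.42.0, other size factors, other filters, limma 3.58.1 on log2 FPKM with a pseudocount of 1 or 0.1, blocking on replicate number, and leaving out each library.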

Additional observations from a re-analysis of the deposited data

How the results depend on the processing

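The counts of imprinted genes that rose or fell stayed within 1.5 times under every alternative, also by parental copy. The number changed at least 2-fold was 3 in place of 10 when limma ran on FPKM with a pseudocount of 1, which shrinks the changes of low genes. Leaving out each library gave 14 to 17 rises, 6 falls and 10 to 11 changes of 2-fold or more. Of 444 values of the 32 genes under the alternatives, 430 kept their direction and their side of the threshold, 6 lost the threshold (3 each of Plagl1 and Airn), 2 passed it and 6 changed sign, none of these past the threshold. The threshold was passed by Mkrn3 without control replicate 1 (log2 fold change 1.06) and by H13 without induced replicate 2 (0.11). Signs changed for Kcnq1ot1 without control replicate 1 (-0.05), for Peg10 without control replicate 2 (0.02), induced replicate 1 (0.03) or induced replicate 3 (0.04), and for Gnas with library totals alone (-0.01) and without control replicate 2 (-0.02). Leaving out each library gave -0.05 to 0.27 for Kcnq1ot1, -0.12 to 0.04 for Peg10 and -0.02 to 0.08 for Gnas. The cause was not tested. Pairing by replicate number was not seen: deviations of same-numbered libraries correlated at -0.05, -0.04 and 0.04, and with the replicate block 9063 of all genes were called in place of 9225, while no call among the 32 genes changed. Under DESeq2 8439 genes were called in all. The median log2 fold change of all genes went from -0.01 to -0.04 with library totals alone. The depth limits the 12 untested genes and the size of the fall of Dlk1. The stricter filter left out 4 of the 32 genes.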
